A study of Mus musculus with 12 samples.

Results

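The secretory granule and prohormone genes are 10 genes whose products fill, shape or process the cargo of dense core granules: Chga, Chgb, Scg2, Scg3, Vgf, Pcsk1, Pcsk2, Cpe, Scg5 and Ptprn. They were taken as a named list and matched by gene symbol to the Ensembl identifiers of the count files, which hold 55416 genes, and all 10 were found. Of the 10, 7 passed the filter on low counts and were tested among 13269 genes, whereas Scg2, Pcsk2 and Vgf did not pass. The members were chosen by name, with the IHC and OHC levels of these same libraries and their differences in view, so the differences between cell types are given as a description of these libraries and support nothing further.

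RNA was sequenced from inner hair cells (IHCs) and outer hair cells (OHCs) of the organ of Corti of newborn (P0) mice, in 6 pools of each cell type, to compare gene expression between the cell types. Both kinds of pool came from 1 cross, of males homozygous for a Cre-dependent tdTomato reporter at the Rosa26 locus with females carrying an Atoh1-GFP allele and an Insm1 allele that expresses GFP and Cre, and the labels give both groups the genotype WT. Cells with GFP alone were collected as IHCs and cells with GFP and tdTomato as OHCs, so the activity of the Insm1 locus itself drew the line between the groups. The 6 pools of a cell type are described as biological replicates, and whether IHC and OHC pools came from the same pups is not given for these libraries. Libraries were depleted of ribosomal RNA, primed with random hexamers, amplified and sequenced with paired 100 base reads.

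Neurons and endocrine cells store peptides in dense core granules, which bud from the trans-Golgi network, mature while their contents are cleaved, and fuse with the plasma membrane when calcium rises. Granins are acidic proteins that aggregate with the cargo, convertases and a carboxypeptidase cut precursors into active peptides, and membrane proteins mark the granule itself. Many of the genes are induced through cyclic AMP response elements (CREs) in their promoters, and the neuron-restrictive silencer REST keeps several of them off outside neurons and endocrine cells.

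The CRE stretches of 5 members are shown because these genes share promoter letters but differ in their levels in hair cells. They were read from RefSeq promoters on GRCm38.p6, each covering 250 bases before and 50 after a gene's start, which were found for 8 of the 10 members, all but Cpe and Vgf. Each is written 5′ to 3′ along the gene's strand, and capitals mark the full CRE TGACGTCA in Chgb, Scg2 and Pcsk1, its first 6 letters in Chga and its first 5 in Scg3.
Chgb: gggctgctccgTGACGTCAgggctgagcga
Scg2: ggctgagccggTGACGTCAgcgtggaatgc
Pcsk1: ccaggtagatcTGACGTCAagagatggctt
Chga: gggcggtcctaTGACGTaatttcctggg
Scg3: cgctgggtcgcTGACGccatcctcacg
The stretches lie at chr2:132781559-132781588 on the plus strand for Chgb, chr1:79440076-79440105 on the minus strand for Scg2, chr13:75089768-75089797 on the plus strand for Pcsk1, chr12:102554886-102554913 on the plus strand for Chga and chr9:75684071-75684097 on the minus strand for Scg3. The first capital stood 72 bases before the RefSeq start in Chgb, 68 in Scg2, 78 in Pcsk1, 44 in Chga and 30 in Scg3.

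Counted on both strands, TGACGTCA occurred in a promoter of 3 of the 8 members and of 2.03% of the 27025 genes with a RefSeq promoter. The 5 letters TGACG, which every full CRE contains on either strand, occurred in a promoter of all 8 members and of 23.0% of all genes. TTCAGCACC, the left part of the REST binding motif, occurred in Scg2 alone among the 8 and in 0.433% of all genes. These are matches of letters in a fixed window, and no binding was measured here. The 3 members with a full CRE differed widely in these cells: Chgb was abundant in both cell types, Pcsk1 was higher in OHCs, and Scg2 was nearly silent in 10 of the 12 libraries.

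**Figure D1:**
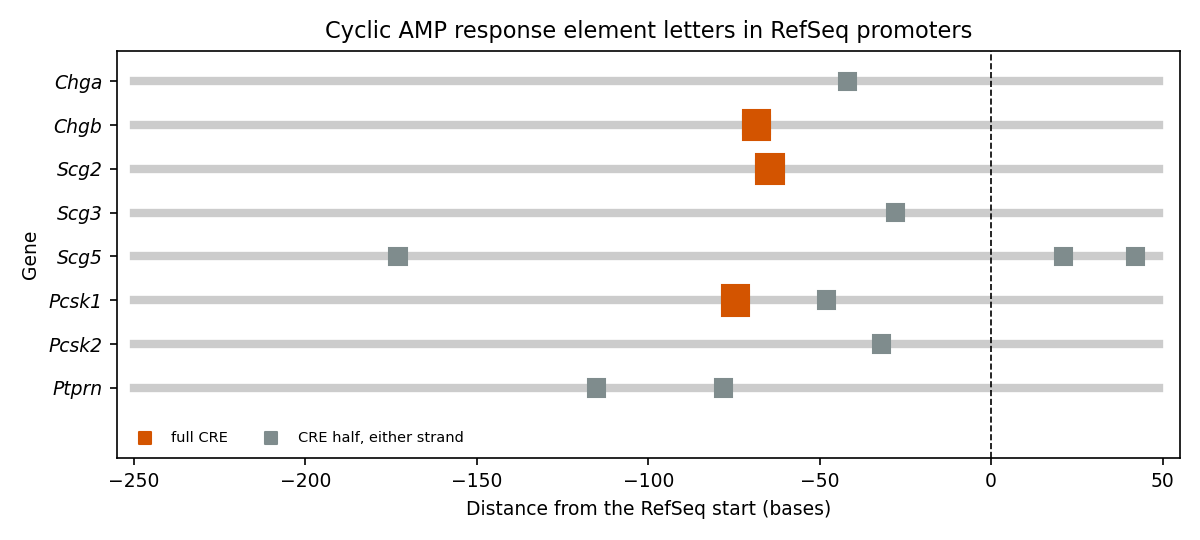
Positions of CRE letters in the RefSeq promoters of 8 granule genes. The horizontal axis is the distance in bases from the RefSeq start (dashed line), each grey bar is 1 promoter of 250 bases before and 50 after the start, orange boxes are the full CRE and small grey boxes the 5 letters TGACG on either strand (for Ptprn, 1 of its 2 promoters is drawn). The full CRE of Chgb, Scg2 and Pcsk1 begins 68 to 78 bases before the start.

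The libraries held between 29564827 and 44017309 counts on genes, and levels are given as counts per 1000000 counts (CPM) on library sizes normalized by the trimmed mean of M values (TMM). Markers of the 2 cell types differed between the groups. Summed over 5 IHC markers the level was 2094 to 4435 CPM in IHC pools and 375 to 711 CPM in OHC libraries. Over 5 OHC markers it was 2.22 to 23.5 CPM in IHC libraries and 112 to 206 CPM in OHC libraries. The OHC markers include Insm1, whose locus sorted the cells, at 27.3 to 84.8 CPM in OHC libraries. Another, Ikzf2, was not higher in OHCs, with a median of 7.05 CPM in IHCs and 4.83 CPM in OHCs. Neurod6, Bcl11b and Bmp2 were higher in every OHC library than in any IHC library. The sum of 12 general hair cell markers was 7127 to 10617 CPM across IHC pools and 5530 to 7041 CPM across OHC pools. These include Otof, also among the 5 IHC markers, with a median of 2113 CPM in IHCs and 463 CPM in OHCs. Myo6 went the other way, with medians of 2307 and 3263 CPM. Of the 12, edgeR called 4 higher in IHCs and 0 higher in OHCs. Ribosomal RNA took 21.5% to 56.9% of the counts in IHC libraries, with the highest share in IHC 1, and 23.4% to 36.4% in OHC libraries. In a pool, a lower level can mean fewer cells with the RNA or less RNA per cell, which bulk libraries cannot tell apart.

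Of the 10 members, 6 were well expressed in both cell types. Chga was higher in IHCs, Pcsk1 was higher in OHCs, and Chgb, Scg3, Scg5 and Cpe differed between the cell types by too little to pass. Thus 1 of 7 tested members was higher in OHCs and 1 of 7 higher in IHCs at an adjusted p under 0.05, where 2.44% of all tested genes were called higher in OHCs and 3.81% higher in IHCs, 6.26% together. The median log2 fold change (OHC over IHC) of the 7 tested members was 0.21, against -0.04 over all tested genes. Values for each member follow by role.

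**Figure D2:**
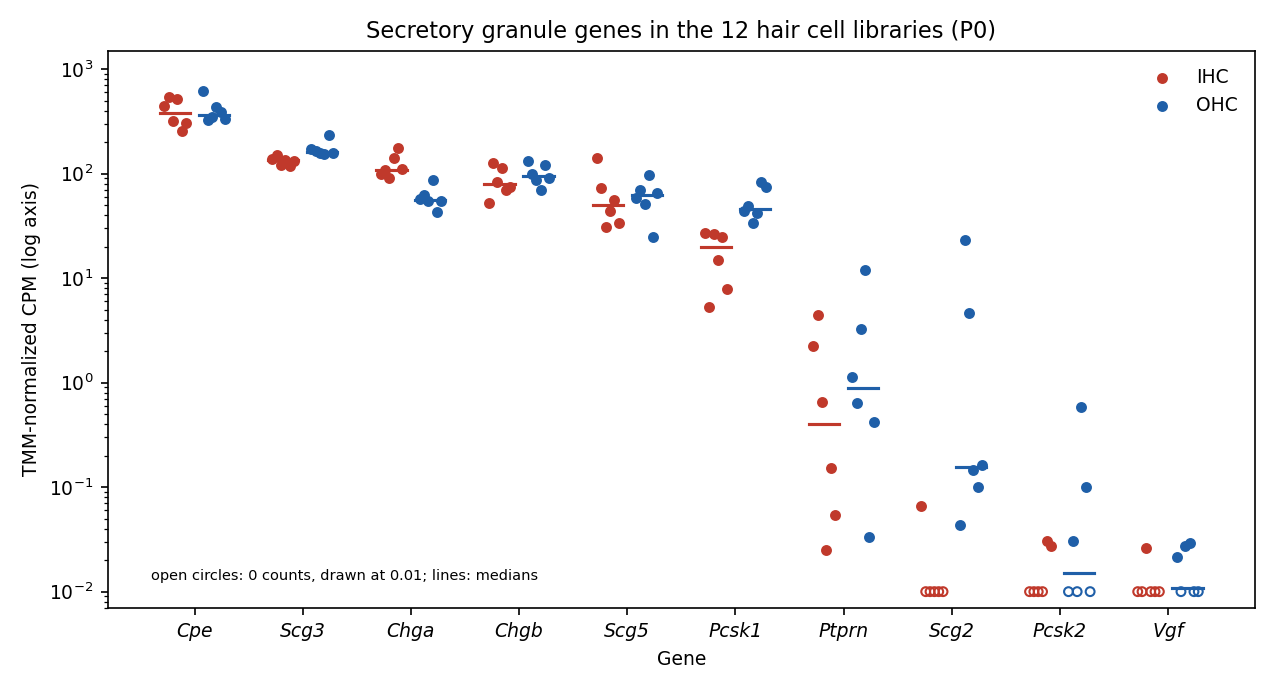
Level of each granule gene in the 12 libraries. The vertical axis is TMM-normalized CPM on a log scale, each point is 1 library (red IHC, blue OHC), lines are medians of 6 libraries, and open circles at the foot are libraries with 0 counts. The IHC and OHC points of Chga, Pcsk1 and Scg3 do not overlap, and Scg2 stands out in only 2 of the 6 OHC libraries.

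Among the granins, Chga was the member with the clearest shift towards IHCs. Chga encodes chromogranin A, which aggregates with cargo in the trans-Golgi network and is itself cut into peptides (chromosome 12, 102520484 to 102531300, GRCm39, plus strand). Its level was lowest at 91.5, median 109 and highest at 174 CPM in the 6 IHC libraries. In the 6 OHC libraries it was lowest at 43.3, median 56.1 and highest at 86.1 CPM. Every IHC library was therefore above every OHC library, although the highest OHC library, OHC 4, came close to the lowest IHC library. The means were 120 ± 31.2 CPM for IHCs and 59.8 ± 14.3 CPM for OHCs (SD, n = 6 each), a log2 fold change of -1.01 with a standard error of 0.24, or 2.01-fold higher in IHCs (edgeR quasi-likelihood test, Benjamini-Hochberg adjusted p = 0.0155). Leaving out any 1 of the 12 libraries moved the log2 fold change between -1.14 and -0.89, and the adjusted p of edgeR's test ranged from 0.0081 to 0.0417.

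Chgb, Scg3 and Chga all rank among the abundant messages of these cells, and neither Chgb nor Scg3 followed Chga towards IHCs. Chgb encodes chromogranin B, another granin of endocrine and neuronal granules (chromosome 2, 132622464 to 132637904, plus strand). It ranged from 52.3 to 125 CPM with a median of 79.5 in IHCs, and from 69.1 to 131 CPM with a median of 95.7 in OHCs. The ranges of Chgb overlapped almost throughout, with only 1 OHC library above the highest IHC library. Its log2 fold change was 0.21 with a standard error of 0.25 (edgeR, adjusted p = 0.678).

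Scg3 encodes secretogranin III, which ties chromogranin A aggregates to the cholesterol-rich granule membrane (chromosome 9, 75546929 to 75591396, minus strand). It was 119 to 149 CPM with a median of 134 in IHCs, and 156 to 233 CPM with a median of 160 in OHCs. All 6 OHC libraries were above all 6 IHC libraries, by a narrow margin, and OHC 5 stood well above the other OHC libraries. Its log2 fold change was 0.39 with a standard error of 0.19, and it did not pass in edgeR (adjusted p = 0.243) although it did in DESeq2 (adjusted p = 0.0474). With Scg3 and Pcsk1, 2 of the 7 tested members had every OHC library above every IHC library, where 2.22% of all tested genes did. With Chga, 1 of 7 had every IHC library above every OHC library, where 2.37% of all tested genes did, so 3 of 7 did not overlap, against 4.6% of all tested genes.

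Scg3 was also the steadiest member from pool to pool. Its coefficient of variation (CV, the SD as a percent of the mean) was 8.61% in IHCs and 17.4% in OHCs, against a median CV of 62.8% and 51.3% over all tested genes. Among the CVs of all tested genes in IHCs the Scg3 value stood at percentile 0.121, and in OHCs at percentile 5.97. Chga, with CVs of 25.9% in IHCs and 24.0% in OHCs, Chgb, with 32.0% and 23.2%, and Cpe, with 29.8% and 26.7%, were less steady than Scg3 but steadier than the median gene. Scg3, Chga, Chgb and Cpe are abundant, the tested genes cover all levels past the filter, and CVs were not compared at a like level.

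The remaining granins were close to absent, with 1 exception that rested on a pair of libraries. Scg2 encodes secretogranin II, the precursor of secretoneurin (chromosome 1, 79412386 to 79417837, minus strand). It had 1 count in IHC 1 and 0 counts in the other 5 IHC libraries. The OHC libraries 1 to 6 had 2, 767, 171, 5, 3 and 7 counts, which is 0.0431, 23.4, 4.64, 0.145, 0.100 and 0.164 CPM. OHC 2 and OHC 3 thus held almost all of the Scg2 reads, and the other 4 OHC libraries stood near the limit of detection.

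Pooled over libraries, 955 Scg2 counts in OHCs against 1 in IHCs gave a ratio of 871, with a 95% exact counting interval from 156 to 34438. The ratio was 201 (interval 35.6 to 7981) without OHC 2 and 22.5 (interval 3.53 to 942) without OHC 2 and OHC 3, alternatives that were chosen after the counts were seen. These intervals cover counting error only and not the spread between pools. Scg2 did not pass the filter on low counts. Without the filter, edgeR's test gave it an adjusted p of 0.00463, and DESeq2 gave 3.95e-06.

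Markers of other cell types were also measured in the libraries that held Scg2, and single markers varied between OHC libraries. Summed over 13 neuronal markers OHC 2 had 285 CPM and OHC 3 had 400 CPM, inside the range of 235 to 512 CPM over all OHC libraries. Most of each sum was Nefl and Nefm, at 72.1 and 186 CPM in OHC 2 and at 99.9 and 256 CPM in OHC 3. Prph and Tubb3, which mark neurons, had at most 2 counts in any OHC library and so do not set OHC 2 and OHC 3 apart. Nefh and Stmn2 were at 4.12 and 2.13 CPM in OHC 2, above the OHC medians of 0.655 and 0.177 CPM. In OHC 3 they were below these medians, at 0.163 and 0.109 CPM. The sum of 6 endothelial markers was 13.4 CPM in OHC 2, the lowest of the OHC libraries, and 153 CPM in OHC 3, the highest. The part of other cells in the Scg2 reads was not tested.

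Vgf, a neurotrophin-induced precursor stored in granules of neurons and endocrine cells, was not detectable beyond single reads (chromosome 5, 137055246 to 137062205, plus strand). It had 1 count in 1 IHC library and in 3 OHC libraries and 0 counts in the other 8. A count of 0 allows up to 3 counts in a library, so a level below that cannot be told from absence at this depth.

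Of the enzymes that process cargo, Pcsk1 was higher in OHCs, Cpe was high and similar in both cell types, and Pcsk2 was nearly silent. Pcsk1 encodes the convertase that makes the first cuts in many prohormones (chromosome 13, 75237284 to 75284898, plus strand). Its level in IHCs was lowest at 5.35, median 19.9 and highest at 27.3 CPM. In OHCs it was lowest at 34.0, median 46.3 and highest at 82.6 CPM. All 6 OHC libraries stood above all 6 IHC libraries, and IHC 2 and IHC 6 were well below the other IHC libraries.

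The Pcsk1 means were 17.8 ± 9.72 CPM for IHCs and 54.3 ± 19.7 CPM for OHCs (SD, n = 6 each). This gave a log2 fold change of 1.61 with a standard error of 0.42, or 3.06-fold higher in OHCs (edgeR, adjusted p = 0.0245). The difference kept its direction whichever library was left out, with log2 fold changes from 1.42 to 1.76, but edgeR's adjusted p rose to 0.0606 without OHC 5 and to 0.0667 without OHC 6, the libraries with the most Pcsk1.

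Cpe encodes carboxypeptidase E, which trims the basic residues that the convertases leave and also helps to sort cargo (chromosome 8, 65045555 to 65146435, minus strand). It ran from 256 to 536 CPM with a median of 380 in IHCs and from 328 to 615 CPM with a median of 367 in OHCs. The groups overlapped over most of their range, and OHC 1 alone exceeded the highest IHC library. The log2 fold change of Cpe was 0.04 with a standard error of 0.22 (edgeR, adjusted p = 0.939).

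Pcsk2 encodes the second neuroendocrine convertase, which acts later than the product of Pcsk1 and cuts further (chromosome 2, 143387993 to 143659507, plus strand). It had at most 1 count in any IHC library and 0, 1, 0, 20, 3 and 0 counts in the OHC libraries 1 to 6. OHC 4 alone accounted for most of them, at 0.581 CPM. Pcsk2 did not pass the filter, and no difference between cell types was detectable at this depth.

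Scg5 encodes the chaperone 7B2, which keeps the Pcsk2 product from acting too early (chromosome 2, 113606688 to 113660094, minus strand), and was plentiful where its client was not. It was 31.0 to 141 CPM with a median of 49.8 in IHCs and 24.9 to 97.5 CPM with a median of 62.0 in OHCs. IHC 1 was far above the other IHC libraries and above every OHC library. The log2 fold change of Scg5 was -0.03 with a standard error of 0.38 (edgeR, adjusted p = 0.971), and its sign turned, to 0.37, without IHC 1.

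Ptprn encodes IA-2, a phosphatase-like protein that spans the granule membrane (chromosome 1, 75223671 to 75241146, minus strand), and it was the most uneven member among the tested genes. It was 0.0252 to 4.40 CPM with a median of 0.404 in IHCs, and 0.0334 to 11.9 CPM with a median of 0.891 in OHCs. Single pools set the level in both cell types, IHC 2 with 180 counts and OHC 4 with 410 counts, while IHC 4 and OHC 5 had 1 count each. The log2 fold change was 1.21 with a standard error of 1.26 (edgeR, adjusted p = 0.618) and was -0.19 without OHC 4. A long non-coding gene on the opposite strand, Gm28294, shares 923 exonic bases with Ptprn, 20.8% of its exons, and had at most 12 counts in a library. The study's methods name no strand option for counting and state default settings otherwise, and whether the libraries kept strand is not given in the sources used here, so reads of the pair may not be told apart.

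**Figure D3:**
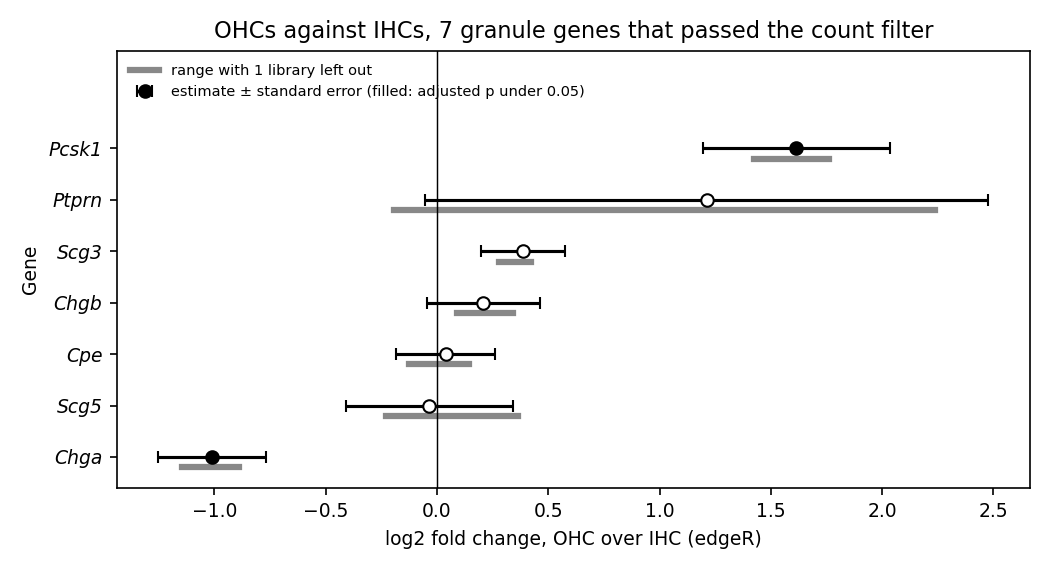
Difference between OHCs and IHCs for the 7 tested granule genes. The horizontal axis is the log2 fold change of OHC over IHC from edgeR, circles with bars are the estimate and its standard error (filled at an adjusted p under 0.05), and grey bars span the values with 1 library left out. Chga lies at -1.01 and Pcsk1 at 1.61, whereas the grey bars of Cpe, Scg5 and Ptprn cross 0.

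Levels per kilobase of exons set genes beside each other only roughly. The length was the union of exons over all annotated transcripts, which can exceed the length of the RNA present. It was 3584 bases for Cpe, 4088 for Chgb, 6514 for Chga, 8434 for Scg3 and 10713 for Scg5. On this measure Cpe was far above the other members in both cell types, and Cpe was also the highest member in CPM. It had 111 ± 33.0 CPM per kilobase (SD, n = 6) in IHCs and 114 ± 30.3 in OHCs, and stood at percentile 98.9 and 99.1 of the tested genes. Cpe made up 62.6% ± 5.92 of the summed level of the 10 members in IHCs and 61.6% ± 5.47 in OHCs (SD, n = 6). The sum itself was 174 ± 38.8 CPM per kilobase in IHCs and 183 ± 32.4 in OHCs (SD, n = 6), with overlapping ranges.

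Below Cpe the order of the granins on these exon lengths differed between the cell types in the place of Chga. In IHCs the mean level of Chgb was 21.2, of Chga 18.5 and of Scg3 15.7 CPM per kilobase, and each of these neighbours overlapped across libraries. In OHCs Chgb was at 24.5 and Scg3 at 20.5 CPM per kilobase, which overlapped, and Chga was at 9.18, with all Scg3 libraries above all Chga libraries. Next in IHCs came Scg5, with 5.87 CPM per kilobase and all libraries below those of Scg3, and then Pcsk1, with 2.17. In OHCs Pcsk1, at 6.64, and Scg5, at 5.73 CPM per kilobase, overlapped with each other, and Pcsk1 overlapped with Chga above it. Ptprn, at 0.282 in IHCs and 0.653 in OHCs, Scg2, Pcsk2 and Vgf formed the low end in both cell types. Neighbours in the order of these genes overlapped across libraries, although Ptprn was above Scg2 within each of the 6 IHC libraries. In IHCs every Ptprn library was above every Pcsk2 library, and in OHCs every Scg2 library was above every Vgf library.

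Ratios taken within a library show the balance of members without regard to its depth. The CPM ratio of Pcsk1 to Chga was 0.0498 to 0.287 in IHC libraries and 0.484 to 1.91 in OHC libraries, and the groups did not overlap. The ratio of Scg3 to Chga was 0.684 to 1.39 in IHCs and 1.81 to 5.38 in OHCs, again with no overlap. The ratio of Chga to Chgb, at 0.858 to 2.52 in IHCs and 0.355 to 1.25 in OHCs, did overlap, as did that of Pcsk1 to Cpe, at 0.00999 to 0.0972 in IHCs and 0.0715 to 0.224 in OHCs. These ratios restate the CPM above and carry no test of their own.

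Markers of other cells moved in the same directions as Chga and Pcsk1. Summed over 13 markers of spiral ganglion neurons, which use granins themselves, the level was 894 to 1587 CPM in IHC libraries and 235 to 512 CPM in OHC libraries, and 4 of the 13, Nefl, Nefm, Ntrk3 and Calb2, were called higher in IHCs. Of these markers, Prph and Scn9a never exceeded 3 counts in a library, and Calb2 is known from IHCs too. The sum of 6 endothelial markers was 0.218 to 13.0 CPM across IHC pools and 13.4 to 153 CPM across OHC pools, with 5 of 6 called higher in OHCs and Cldn5 at 0 counts in every IHC library. Mesenchymal markers summed to 42.8 to 59.3 CPM across IHC pools and 5.24 to 27.7 CPM across OHC pools, with 0 of 8 called by edgeR's quasi-likelihood test, 2 higher in IHCs at an unadjusted p under 0.05, and 1 called higher in IHCs by DESeq2, which called 2929 of 16911 genes in all. The part of these cells in the Chga and Pcsk1 differences was not tested.

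The genes whose pattern over the 12 libraries was most like that of Chga were Ddi2 and Xirp2, with a root mean square difference of 0.280 and 0.283 in centred log2 CPM, where the median over tested genes was 1.13. For Pcsk1 they were Grp, at 0.516, and Ccs, at 0.604, where the median was 1.51. Grp is itself a cargo gene, the precursor of gastrin-releasing peptide, and ran from 31.9 to 303 CPM in IHCs and from 152 to 279 CPM in OHCs.

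The other genes of the regulated secretory pathway were taken from 6 lists with 146 genes, of which 145 were in the files and 79 were tested. Of the 79, 3 were called higher in OHCs and 5 higher in IHCs, 10.1% together against 6.26% of all tested genes, and their median log2 fold change was -0.12. The genes called higher in IHCs were Cadps, Vti1a, Rph3al, Trh and Creb3l1, and those called higher in OHCs were Tbc1d8b, Insm1 and Insm2. The call of Insm1 was set by the sort, which used its locus. Insm2, with 0 counts in every IHC library, and Trh, with at most 25 counts in an OHC library, passed the filter through the cell type where they are high. With these calls counted, the 10.1% describes the lists and is not a test against the 6.26%.

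**Figure D4:**
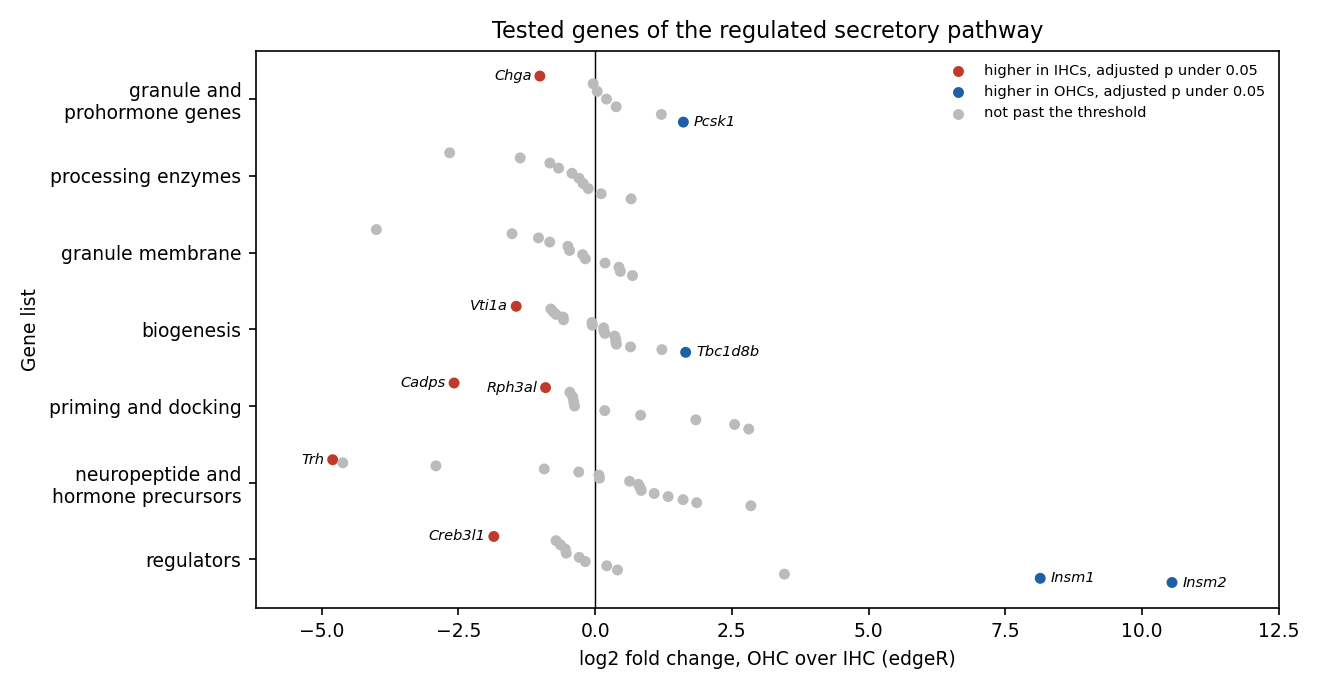
Log2 fold changes of the tested granule genes and of the tested genes on 6 lists of the regulated secretory pathway. The horizontal axis is the log2 fold change of OHC over IHC from edgeR, each point is 1 gene, and red and blue points with names had an adjusted p under 0.05. Named points of both colours are few in each list, and Insm1 lies far to the right at 8.14, as does Insm2, whose place depends on the prior count because every IHC library had 0 counts.

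Of 10 tested processing enzymes, 0 were called by edgeR's quasi-likelihood test, and their median log2 fold change was -0.36. At an unadjusted p under 0.05, 3 were higher in IHCs, whereas DESeq2 called 2 higher in IHCs and 1 in OHCs, and the exact test 1 higher in IHCs. Over all genes, DESeq2 called 2929 of 16911 and the exact test 1266 of 13269. The share of all genes past an unadjusted p of 0.05 is not given here. Pcsk5, a convertase with broad expression, was at 188 ± 30.7 CPM for IHCs and 118 ± 37.2 CPM for OHCs (SD, n = 6), a log2 fold change of -0.67 (edgeR, adjusted p = 0.0927). Furin, the convertase of the trans-Golgi network, was at 108 ± 83.6 CPM for IHCs and 41.7 ± 13.0 CPM for OHCs (SD, n = 6), a log2 fold change of -1.37 (edgeR, adjusted p = 0.0645). Furin was called with no filter, by the exact test and by DESeq2, and Pcsk5 by DESeq2 alone among these.

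Of 12 tested granule membrane proteins and transporters, 0 were called by edgeR's quasi-likelihood test, with a median log2 fold change of -0.35. At an unadjusted p under 0.05, 2 of them were higher in IHCs, and DESeq2 and the exact test each called 2 higher in IHCs. Here too DESeq2 called 2929 of 16911 genes in all, and the exact test 1266 of 13269. By the mean over both cell types the most abundant were Atp6ap1, an accessory subunit of the proton pump, at 169 ± 47.2 and 150 ± 24.4 CPM in IHCs and OHCs, and Cyb561, a cytochrome of granule membranes, at 61.0 ± 23.5 and 43.2 ± 19.9 CPM (SD, n = 6). Among 18 biogenesis factors, all tested, 1 was higher in each direction and the median was 0.16. Vti1a, a SNARE of the trans-Golgi network, was at 42.0 to 194 CPM across IHC pools and 23.7 to 36.0 CPM across OHC pools without overlap, with a log2 fold change of -1.44 and a standard error of 0.36 (edgeR, adjusted p = 0.0190). Its call was lost without IHC 5, the highest library (adjusted p = 0.0639 in edgeR). Tbc1d8b was at 12.1 ± 6.48 CPM for IHCs and 38.3 ± 21.7 CPM for OHCs (SD, n = 6; edgeR, adjusted p = 0.0457), a call lost in 10 of the 12 fits with 1 library left out. Rab2a, a GTPase of granule maturation, was at 331 ± 54.7 and 370 ± 23.7 CPM in IHCs and OHCs, and Golga4, a golgin, at 242 ± 168 and 162 ± 52.8 CPM (SD, n = 6).

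The priming factor Cadps was the pathway gene with the firmest difference towards IHCs. Cadps encodes CAPS, which readies dense core granules for fusion, and was at 49.7 to 99.7 CPM with a median of 64.5 in IHCs. In OHCs it was at 1.95 to 28.4 CPM with a median of 9.58, so the groups stood well apart, and OHC 2 was the highest of the OHC libraries. The log2 fold change of Cadps was -2.58 with a standard error of 0.50, or 5.97-fold higher in IHCs (edgeR, adjusted p = 0.00296), and the call held in every fit with 1 library left out, at adjusted p values of edgeR from 8.51e-04 to 0.0101.

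Rph3al, a Rab effector of exocytosis, was at 60.6 to 149 CPM across IHC pools and 43.9 to 59.4 CPM across OHC pools, which did not overlap. Its log2 fold change was -0.91 (edgeR, adjusted p = 0.0366), and the call was lost in 8 of the 12 fits with 1 library left out. Syt7, a calcium sensor, was at 380 ± 98.9 and 286 ± 99.3 CPM in IHCs and OHCs, and Rph3a, a relative of Rph3al, at 302 ± 60.1 and 230 ± 42.7 CPM (SD, n = 6), and neither was called by edgeR. The median of the 11 tested priming and docking factors was -0.38.

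Most of the peptide precursors that such granules carry elsewhere did not pass the count filter, which was also true of most genes in the files. Of 64 precursor genes in the files, 22 had 0 counts in all 12 libraries, 29 never exceeded 3 counts in a library, and 16 were tested. Of all 55416 genes, a set that also holds non-coding genes, 27488 had a count in at least 1 library and 13269 were tested. Trh, the thyrotropin-releasing hormone precursor, was the only one called by edgeR's quasi-likelihood test, at 0.458 to 19.2 CPM across IHC pools and 0 to 0.834 CPM across OHC pools (edgeR, adjusted p = 0.0370). DESeq2 called 4 precursors higher in IHCs and 4 higher in OHCs, the exact test 2 higher in IHCs, and the fit with no filter 3 higher in IHCs and 1 in OHCs. Over all genes these fits also called more, DESeq2 2929 of 16911, the exact test 1266 of 13269 and the fit with no filter 1811 of 27488. IHC 2 held most of the Trh reads, and the call was lost in 7 of the 12 fits with 1 library left out. The most abundant precursors in both cell types were Grp, at 122 ± 96.3 CPM for IHCs and 211 ± 41.2 CPM for OHCs, and the neurotrophin gene Bdnf, at 133 ± 64.2 and 108 ± 8.47 CPM (SD, n = 6). Grp did not pass (edgeR, adjusted p = 0.219), but its adjusted p was 0.0108 without IHC 1, where Grp was highest.

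Among the regulators, Insm1 and Insm2, zinc finger factors of neuroendocrine cells, were higher in OHCs and Creb3l1 was higher in IHCs. Insm1 was at 0.0244 to 0.436 CPM across IHC pools and 27.3 to 84.8 CPM across OHC pools, but its locus drove the reporter that sorted the cells. Insm2 had 0 counts in every IHC library and 1.79 to 7.90 CPM in OHCs, at least 52.9-fold higher against 3 counts per IHC library (edgeR, adjusted p = 3.31e-04). Because Insm2 passed the filter on low counts through its OHC libraries alone, this p-value is a description and adds no support to the counts. Creb3l1, a membrane-bound factor of secretory cells, was at 21.1 to 81.8 CPM across IHC pools and 3.90 to 21.8 CPM across OHC pools, with 5 of 6 IHC libraries above the highest OHC library. Its log2 fold change was -1.85 with a standard error of 0.44 (edgeR, adjusted p = 0.0148), and the call held in every fit with 1 library left out.

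The splicing factor Srrm4, which limits REST production in neurons and hair cells, was at 513 ± 147 CPM for IHCs and 419 ± 81.8 CPM for OHCs (SD, n = 6). Rest itself was at 55.5 ± 39.7 CPM for IHCs and 38.0 ± 17.2 CPM for OHCs (SD, n = 6). Its log2 fold change was -0.54 with a standard error of 0.42 (edgeR, adjusted p = 0.480). Creb3l2, a relative of Creb3l1, was at 270 ± 77.1 and 188 ± 39.9 CPM (SD, n = 6). Neither Srrm4 nor Creb3l2 was called by edgeR.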

How the data were processed

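The authors deposited whole-number counts per gene for each library. Per the labels and the study's methods, reads were trimmed with Trimmomatic, aligned with STAR to GRCm39 and counted with HTSeq in its intersection-nonempty mode on GENCODE vM27, with default settings otherwise; versions are not given in the sources used here, and no strand option is named. Summary lines that name no gene (24.2% to 46.1% of a library) were left out. Symbols, positions and exon lengths came from GENCODE vM39, which held 98.8% of the identifiers.

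Genes were filtered with filterByExpr (minimum count 10, minimum total 15), normalized by TMM and compared between 6 IHC and 6 OHC libraries with edgeR 4.0.16 (quasi-likelihood test, R 4.3.3), with Benjamini-Hochberg adjustment over all 13269 tested genes and a threshold of 0.05. The procedure was tested on simulated data. DESeq2 1.42.0, the exact test, other filters, size factors and ribosomal RNA left out, a replicate block and leaving out each library were alternatives. Counting intervals used SciPy 1.17.1. Of short motifs, 14 were counted in promoters, chosen with the members' promoters in view, and 3 are given.

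The members and lists were chosen with earlier results of these data known. Named genes were the members, pathway genes past the threshold, up to 2 of the highest level per list, and the 2 genes nearest in pattern to each called member; Tubb3, Rest and other single values were added after they were seen. The pools are described as biological replicates, and nothing in the sources used here says that each was a sort of different pups, so p-values measure only the spread between these pools. The level of 1 neuronal marker in the Scg2 libraries is not reported here.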

Additional observations from a re-analysis of the deposited data

Results flagged for a closer look

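In 15 of 55 groups of 6 libraries that were checked for the members and named pathway genes, 1 library stood far from the other 5, with a gap above 0.625 of the group's range. The limit is passed by chance in about 1 in 20 groups of normally distributed values. CPM of low genes such as Scg2, Pcsk2, Trh and Ptprn are skewed and the rate for such values was not measured, so the count of 15 is not a comparison with chance.

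Among the members, Scg2 was at 23.4 CPM in OHC 2, where the next OHC library had 4.64 CPM, and Pcsk2 was at 0.581 CPM in OHC 4, where the next had 0.100 CPM. Ptprn was at 11.9 CPM in OHC 4, followed by 3.23 CPM. Of the abundant members, Scg3 was at 233 CPM in OHC 5 against 172 CPM in the next library, and Cpe was at 615 CPM in OHC 1 against 432 CPM. Scg5 was at 141 CPM in IHC 1, followed by 72.1 CPM.

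Among the pathway genes, IHC 1 was highest for Golga4 at 560 CPM (next 256 CPM) and for Bdnf at 263 CPM (next 126 CPM), and lowest for Rab2a at 220.3 CPM (next 343 CPM). IHC 5 was highest for Vti1a at 194 CPM (next 98.1 CPM) and for Cadps at 99.7 CPM (next 67.5 CPM), and IHC 2 for Trh at 19.2 CPM (next 5.02 CPM). In OHCs, OHC 5 was lowest for Golga4 at 59.9 CPM (next 158 CPM) and highest for Trh at 0.834 CPM (next 0.136 CPM), and OHC 2 was highest for Srrm4 at 577 CPM (next 432 CPM).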

How the results depend on the processing

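The test called 830 genes of 13269, of which 61.0% were higher in IHCs. DESeq2 called 2929 of 16911 (45.7% higher in IHCs) and edgeR's exact test 1266 of 13269. The fit with no filter called 1811 of 27488 (49.3% higher in IHCs), and leaving out 1 library gave 599 to 950. Members called higher in OHCs numbered 3 in DESeq2, which adds Scg2 and Scg3, 2 with no filter, and 0 to 1 with 1 library left out, with 0 in the fits without OHC 5 or OHC 6. Pathway genes called higher in OHCs numbered 11 of 91 tested in DESeq2 and 5 of 79 in the exact test. They numbered 5 of 121 with no filter and 1 of 60 with at least 10 counts in every library. Those higher in IHCs numbered 14, 9 and 9 in the first 3 of these and 3 to 6 with 1 library left out, with 3 in the fits without IHC 5, OHC 2, OHC 3 or OHC 6. The causes were not tested, apart from the fewer genes tested under the stricter filter, where Ptprn, Trh, Insm1 and Insm2 were not tested. Over all alternatives and the 27 named genes, 460 of 509 values kept their direction and side of the threshold. With 1 library left out, the log2 fold changes that turned sign ran from -0.23 to 0.37 for Scg5, from -0.13 to 0.14 for Cpe, from -0.19 to 2.24 for Ptprn and from -0.39 to 0.0025 for Bdnf, and the test called none of these genes.

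The replicate numbers were given to both cell types. Libraries with the same number did not deviate together (r from -0.0313 to 0.0184). No pair known to share pups was there to compare with, so this cannot show whether same-numbered pools shared pups. With the replicate block edgeR called 903 genes, the log2 fold change of Scg5 turned to 0.075, Tbc1d8b and Rph3al had adjusted p values of 0.0932 and 0.0681 in edgeR, and no other named gene changed its call. Depth limits Vgf, Pcsk2 and, in all but a pair of libraries, Scg2.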
